A study of Mus musculus with 2 samples.

Results

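The genes described here carry water-soluble vitamins across cell membranes or through the blood. The rule that chose them lists gene symbols, matched to the Ensembl identifiers deposited, and sets no condition on their values. Earlier results of these data were known when they were chosen. They number 10 of the 43346 Ensembl genes measured. Folate carriers were Slc46a1 and Slc19a1, thiamine carriers Slc19a2 and Slc19a3, the ascorbate carrier Slc23a1, the biotin and pantothenate carrier Slc5a6, and riboflavin carriers Slc52a2 and Slc52a3. Cobalamin was represented by its plasma carrier protein Tcn2 and the receptor Cd320, so 8 of the 10 are solute carriers. RNA longer than 200 nt came from the intestine of 2 littermate B6NCrl pups aged 0 days, whose sex was not collected. Both pups, here called pup 1 and pup 2, form 1 group with no stated treatment, and the sources used here do not say which segments of intestine were taken. The design therefore asks at what level this tissue holds each transcript at birth and how far littermates differ.

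Mammals cannot make most water-soluble vitamins, and enterocytes absorb them at low luminal concentrations through dedicated carriers, many driven by the proton or sodium gradient of the brush border. Mice do make ascorbate, in the liver, through the enzyme encoded by Gulo. Cobalamin differs from the rest: it is taken up by endocytosis as a complex with intrinsic factor through the receptor formed by cubilin and amnionless, then passed to transcobalamin, the product of Tcn2, and delivered to tissues through the receptor encoded by Cd320.

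Sequence is shown first where the data bear on it, at genes with more than 1 start site and at a transcript that takes a large share of its gene. Start windows, which run from 250 bases before to 50 bases after an annotated start, came from RefSeq on GRCm38.p6. Such windows matched Slc46a1, Slc19a1, Slc19a2, Slc19a3, Slc5a6 and Cd320, giving 9 windows, and none was matched for Slc23a1, Slc52a2, Slc52a3 and Tcn2. A pair of windows each was matched for Slc19a1, Cd320 and Slc5a6. For Slc5a6, most of whose TPM lay in transcripts not matched to the annotation used here, none is printed. For Slc19a1 and Cd320 all 4 are printed 5′ to 3′ on the plus strand, with capitals marking GGGCGG, the GC box, on either strand. The upstream Slc19a1 window is chr10:77032489-77032788 and the downstream window is chr10:77032962-77033261. For Cd320 they are chr17:33842841-33843140 and chr17:33843176-33843475.
Slc19a1 upstream: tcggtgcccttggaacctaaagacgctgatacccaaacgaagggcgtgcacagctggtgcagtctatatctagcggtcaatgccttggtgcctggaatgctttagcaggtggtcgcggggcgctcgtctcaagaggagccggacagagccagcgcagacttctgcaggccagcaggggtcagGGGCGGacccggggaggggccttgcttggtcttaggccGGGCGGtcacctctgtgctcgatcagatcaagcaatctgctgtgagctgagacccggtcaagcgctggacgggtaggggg
Slc19a1 downstream: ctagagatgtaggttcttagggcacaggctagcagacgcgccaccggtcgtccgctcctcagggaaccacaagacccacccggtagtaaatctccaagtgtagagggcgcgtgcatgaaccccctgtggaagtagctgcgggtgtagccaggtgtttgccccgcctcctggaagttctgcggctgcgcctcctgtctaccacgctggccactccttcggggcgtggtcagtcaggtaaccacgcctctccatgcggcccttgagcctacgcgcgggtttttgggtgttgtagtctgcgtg
Cd320 upstream: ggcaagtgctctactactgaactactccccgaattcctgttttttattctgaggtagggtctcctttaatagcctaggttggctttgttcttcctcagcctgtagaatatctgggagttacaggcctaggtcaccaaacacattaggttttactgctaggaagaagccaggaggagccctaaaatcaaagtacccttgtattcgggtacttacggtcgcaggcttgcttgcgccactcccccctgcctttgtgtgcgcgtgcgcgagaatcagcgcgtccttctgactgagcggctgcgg
Cd320 downstream: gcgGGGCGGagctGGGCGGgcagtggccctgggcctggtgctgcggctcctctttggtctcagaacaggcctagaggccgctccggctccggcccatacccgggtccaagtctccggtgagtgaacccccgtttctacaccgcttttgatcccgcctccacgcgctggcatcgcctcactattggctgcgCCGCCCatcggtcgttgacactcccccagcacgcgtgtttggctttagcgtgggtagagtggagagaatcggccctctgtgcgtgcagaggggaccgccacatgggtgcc
The letters GGGCGG occurred 2 times in the upstream Slc19a1 window and 3 times in the downstream Cd320 window, and 0 times in the other window of each gene.

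Transcript use differed between those starts in the same direction in both pups. Slc19a1-209, which begins in the upstream window, held 73.7% of the gene's TPM, a length-normalised transcript level, in pup 1 and 68.3% in pup 2. Slc19a1-201, which begins in the downstream window, held 17.4% and 21.97%. Both encode the same reading frame of 1536 bases, so both starts give the same annotated protein. At Cd320 the downstream start led: Cd320-202, which begins there, held 72.2% in pup 1 and 74.5% in pup 2. The transcripts of the upstream start, Cd320-201 and Cd320-203, held 27.8% and 25.5% together. Most of that was Cd320-203, a retained-intron transcript with no reading frame, at 27.1% and 24.3%. In counts, without division by length, the upstream start took 59.0 and 47.1 of the gene's 446 and 366. Cd320-203 is 492 bases long and Cd320-202 is 1191. In Slc19a1 and Cd320 the window of the more used start was the window with GGGCGG. The first matches in the downstream Cd320 window lie near its 5′ end, between the upstream and downstream starts. The upstream window ends before them, at 33843140, so the split of matches at Cd320 depends on where the windows were cut. A link between GGGCGG and start use was not tested. For Slc5a6 both windows held GGGCGG, so its presence could not separate them. Start use at Slc5a6 could not be judged either, since only 27.0% and 32.3% of its TPM fell in matched transcripts. Slc5a6-201, the larger of these at 22.1% and 24.4%, began in neither window. GGGCGG occurred 6 times in the window at which no matched transcript began and 4 times in that of Slc5a6-202. Slc5a6-202 held 4.88% and 7.90% of the gene's TPM. Shares of transcripts are estimates, since transcripts of a gene share most of their sequence.

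Over all 9 windows GGGCGG (reverse strand CCGCCC) occurred in 6, against 35.7% of 32851 RefSeq windows of the same 300 bases. CCAAT (reverse ATTGG) occurred in 3, against 37.4%. Neither TATAAA (reverse TTTATA) nor the palindrome CACGTG occurred in any, against 13.6% and 7.15%. Matches of different motifs overlapped 0 times in these windows. The 9 windows, from 6 genes, held 11 to 28 CpG dinucleotides, against a median of 7 over all windows. Of all windows, 41.4% held 11 or more. The window of Slc19a2 held the 28 and that of its paralogue Slc19a3 the 11.

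All 10 genes reached 1 TPM in each pup, the threshold used here for detection. By the same threshold 59.1% of protein-coding nuclear genes and 64.2% of the 363 other Slc genes were detected. The median level of the 10 was 14.2 TPM in pup 1 and 16.3 TPM in pup 2, or 15.2 ± 1.51 TPM (SD, n = 2). Detected protein-coding genes had a median of 12.5 ± 0.354 TPM and detected other Slc genes 12.7 ± 0.134 TPM. The set thus sat near the middle of the genes this tissue expresses, spread over a 58.6-fold range. The labels call the samples separate pups, and with 2 pups in 1 group an exact sign-flip test cannot go below 0.5, so no p-value is given.

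**Figure D1:**
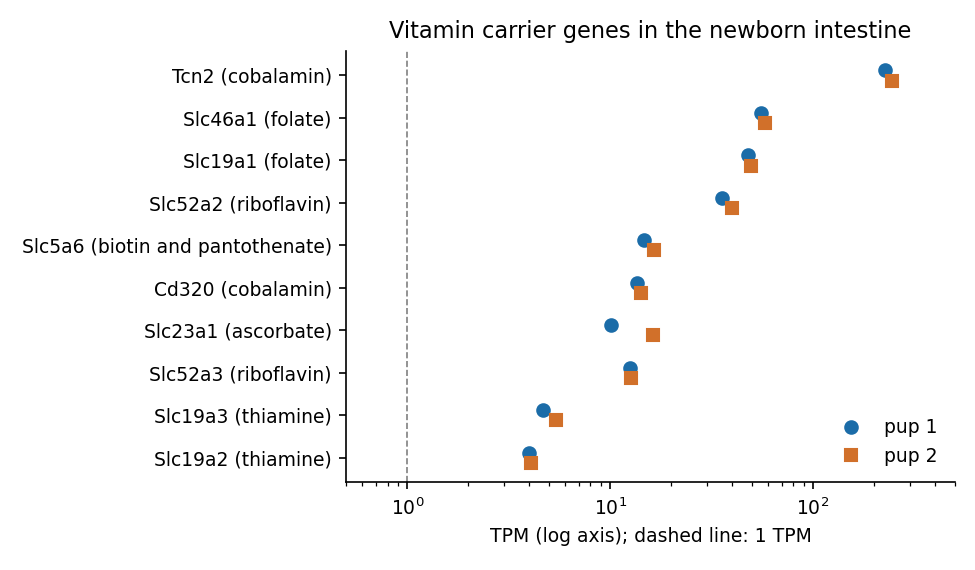
Level of each of the 10 vitamin transport genes in TPM (horizontal log axis), 1 point per pup and 1 row per gene, ordered by mean. Tcn2 stands apart at 236 TPM, and Slc19a2 and Slc19a3 are the lowest at 4.04 and 5.04 TPM.

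Depth and tissue bear on all values. Expected counts summed to 44568098 in pup 1 and 34797495 in pup 2, so 3 counts, the limit that a count of 0 allows, equal 0.0673 and 0.0862 CPM, a level in counts scaled to library size. Intervals and such limits cover counting error of reads only, with no term for variation between animals or from amplification. Amplified reads without a molecular identifier cannot be taken as separate molecules. All 6 epithelial markers were detected, from Cdh1 at 65.9 and 70.6 TPM to Cldn7 at 1112 and 1035 TPM. The tissue was whole intestine and not epithelium alone, with the smooth muscle actin Actg2 at 1825 and 1912 TPM. Of 5 hepatocyte markers only F2 passed 1 TPM in both pups, and the kidney tubule marker Umod had 0 and 1 counts. Among the lowest markers were Pnlip of the exocrine pancreas at 0 and 3 counts and Hoxd13 of the distal gut at 1 and 0 counts. Their lists were not absent, since 4 of 5 exocrine pancreas markers and 3 of 6 genes of the colon list were detected. Of 11 membrane reference genes 10 were detected, with a median of 71.7 TPM, among them the iron exporter Slc40a1 at 453 TPM and the sodium pump subunit Atp1b1 at 184 TPM. In such bulk tissue fewer cells of a type and less RNA per cell cannot be told apart.

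Tcn2 (ENSMUSG00000020432.8, chr11:3917192-3932159, minus strand, GRCm38) was the highest of the 10. Its product, transcobalamin, binds cobalamin in plasma. It reached 227 TPM in pup 1 and 246 TPM in pup 2, a mean of 236 ± 12.8 TPM, from 14976 and 12392 counts. That placed it 550th of 21461 protein-coding nuclear genes. Its distance from the next gene, Slc46a1, was 2.06 ± 0.036 on the log2 scale. All 7 Tcn2 transcripts carry the same reading frame of 1290 bases. Tcn2-201 held 49.99% and 49.3% of the TPM and Tcn2-203 held 37.2% and 35.1%.

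Cd320 (ENSMUSG00000002308.11, chr17:33843091-33849774, plus strand), the cellular receptor for cobalamin-loaded transcobalamin, stood at 13.6 TPM in pup 1 and 14.2 TPM in pup 2, or 13.9 ± 0.410 TPM. The ligand's transcript exceeded that of its receptor by 4.07 ± 0.036 on the log2 scale of TPM + 0.1, a 16.9-fold difference. Of the receptor that takes up the intrinsic factor complex, Amn, which anchors and sorts cubilin, reached 401 and 463 TPM. Cubn, the binding subunit, reached 25.8 and 33.4 TPM, a 14.7-fold lower level. Cubn exceeded Cd320 2.10-fold, and the log2 ratio of Cd320 over Cubn was -1.07 ± 0.22. Cblif, which encodes intrinsic factor, had 2 and 1 counts. Transcripts of both receptor subunits were thus present in samples with almost no transcript of the ligand, and the ligand itself was not measured.

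Among the 17 further cobalamin genes 16 were detected, with a median of 13.2 TPM. Prdx1, a peroxiredoxin whose gene neighbours the cobalamin enzyme gene Mmachc, was highest at 971 TPM, followed by Amn. Mmadhc, which directs cobalamin to its cytosolic or mitochondrial enzyme, was the next at 86.7 TPM. Lrp2, the megalin receptor prominent in kidney tubule, was at 1.29 and 1.28 TPM.

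Slc46a1 (ENSMUSG00000020829.9, chr11:78465697-78472059, plus strand) encodes the proton-coupled folate transporter, required for folate absorption in the upper small intestine. Its level was 55.4 TPM in pup 1 and 57.7 TPM in pup 2, or 56.6 ± 1.65 TPM. Slc19a1 (ENSMUSG00000001436.11, chr10:77032241-77061002, plus strand), the widely expressed reduced folate carrier, followed at 47.8 and 49.2 TPM, or 48.5 ± 1.01 TPM. Slc46a1 was the higher in both pups, by 0.22 ± 0.012 on the log2 scale or 1.17-fold. In counts alone, without division by transcript length, that difference was 0.047. Slc19a1 overlaps Col18a1 on the opposite strand over 8825 bases, of which 0 are exonic in both.

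Both folate carriers lay well below Folr1, the membrane-anchored folate receptor that takes up folate by endocytosis. Folr1 was at 425 TPM in pup 1 and 508 TPM in pup 2, or 467 ± 58.8 TPM, 8.20-fold above Slc46a1. Of the 16 further folate genes 15 were detected, with a median of 11.9 TPM. After Folr1 the highest were Ggh, the lysosomal hydrolase that trims folate polyglutamates, at 56.0 TPM and Tyms, thymidylate synthase, at 52.8 TPM. Folh1, which encodes the brush-border folate hydrolase of some mammals, had 1 and 2 counts.

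Slc19a2 and Slc19a3, the thiamine transporters closest in sequence family to the reduced folate carrier, were the lowest of the 10 genes. Slc19a3 (ENSMUSG00000038496.12, chr1:83012523-83038448, minus strand) was at 4.69 and 5.39 TPM, or 5.04 ± 0.495 TPM. Slc19a2 (ENSMUSG00000040918.8, chr1:164249046-164265385, plus strand) was at 3.98 and 4.09 TPM, or 4.04 ± 0.0778 TPM. By whole-gene TPM Slc19a3 was thus the higher in both pups, by 1.24-fold. Slc19a1 exceeded Slc19a2 by 3.56 ± 0.0029 on the log2 scale, or 11.8-fold.

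**Figure D2:**
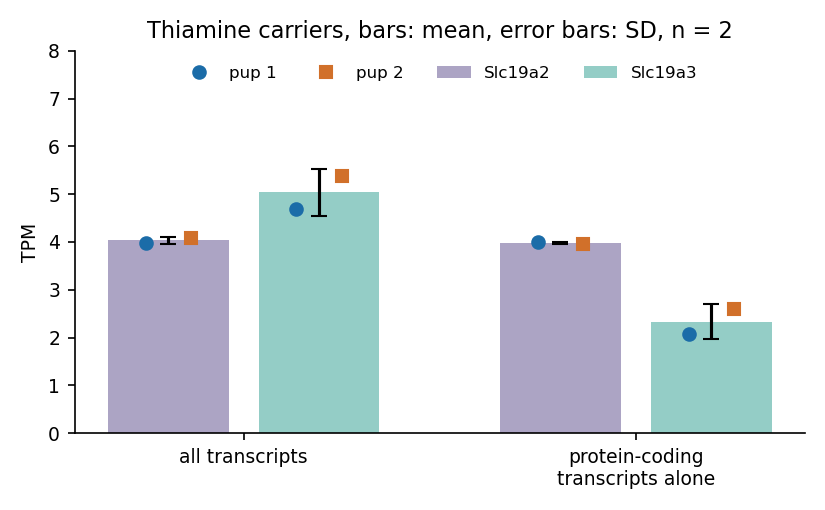
Level of Slc19a2 and Slc19a3 in TPM per pup, with all transcripts counted and with protein-coding transcripts alone. Slc19a3 is above Slc19a2 in the first case and below it in the second, where it falls to 2.08 and 2.59 TPM.

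That order turned over when transcripts without a reading frame were left out. Slc19a3-202, annotated as a processed transcript with no reading frame, held 55.7% of the gene's TPM in pup 1 and 52.0% in pup 2. Protein-coding transcripts of Slc19a3 therefore reached 2.08 and 2.59 TPM, 46.2 ± 2.62% of the gene. Those of Slc19a2 reached 3.99 and 3.96 TPM. On coding transcripts alone Slc19a2 was the higher, by 0.75 ± 0.22 on the log2 scale, a choice of transcripts made after the values were seen. Counts without length also placed Slc19a2 above, by 0.33. The order of the thiamine carriers thus rests on which transcripts are counted and on length, and the estimate for Slc19a3-202 comes from 169 and 138 counts.

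Slc19a3-202 has 4 exons, of which the last 3 are shared with the coding Slc19a3-201. Its own first exon, chr1:83020142-83020232 on the minus strand, lies in an intron of Slc19a3-201, and no RefSeq start window was matched to it. The shared exons hold 503 of the 1464 coding bases of Slc19a3-201, or 34.4%. Reads within stretches that both transcripts contain cannot tell them apart. The junction of Slc19a3-202, from GENCODE M21 transcripts, is printed 5′ to 3′ on the transcribed strand, with its own exon of 91 bases in capitals and 40 bases of the first shared exon in lower case.
Slc19a3-202: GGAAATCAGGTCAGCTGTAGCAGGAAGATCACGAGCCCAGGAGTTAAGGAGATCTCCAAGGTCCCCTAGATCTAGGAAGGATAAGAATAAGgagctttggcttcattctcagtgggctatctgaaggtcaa
The lower-case stretch is part of both transcripts, and the capitals belong to the non-coding transcript and not to Slc19a3-201.

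Of the 9 genes with a known coding share only Slc19a3 had less than 50% of its TPM in protein-coding transcripts in both pups. Of 12517 protein-coding genes at 1 TPM or more, 6.39% did. For Cd320 the coding share was 72.9% and 75.7%, through its retained-intron transcript, which rests on 52.3 and 37.4 counts. The other 7 were above 90% in both pups. Slc5a6 has no value, because only 27.0% and 32.3% of its TPM fell in transcripts matched to the annotation used here.

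**Figure D3:**
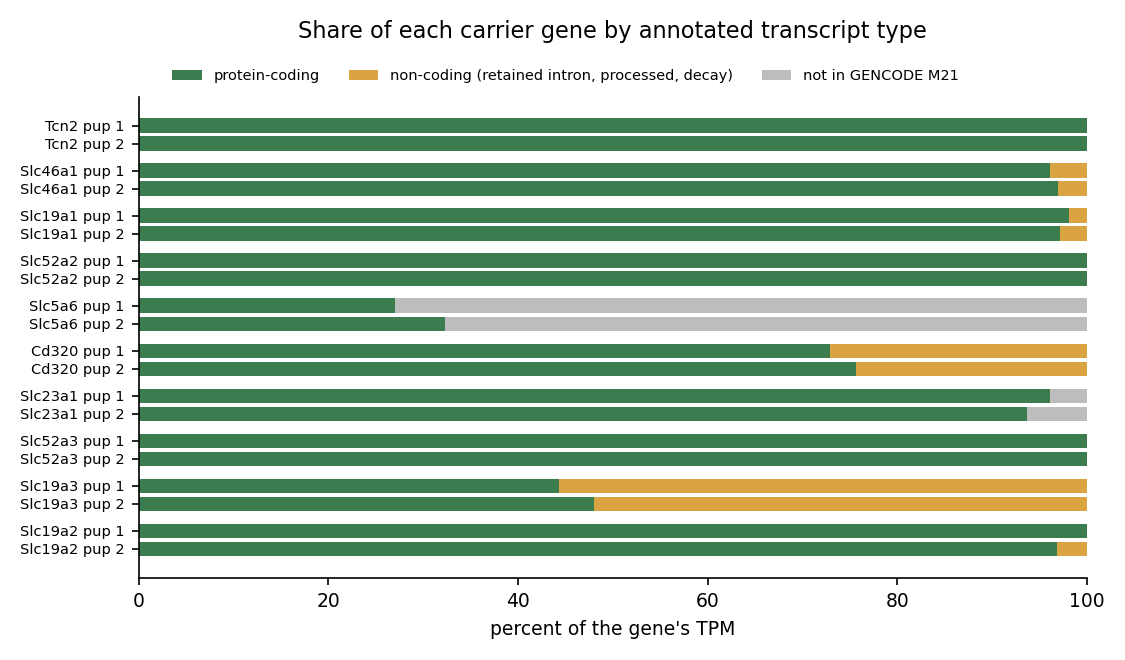
Percent of each gene's TPM by annotated transcript type, 1 bar per gene and pup, with bars from 0 to 100. Slc19a3 stands out with 44.3% and 48.1% in protein-coding transcripts, and most of Slc5a6 is unmatched.

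Other thiamine genes were higher than the carriers. All 9 were detected, with a median of 31.4 TPM. Ogdh and Pdha1, subunits of thiamine-dependent mitochondrial dehydrogenases, were at 116 and 84.5 TPM. Slc44a4, known as a carrier of thiamine pyrophosphate in colon, was at 95.55 TPM in pup 1 and 103 TPM in pup 2, far above both Slc19a2 and Slc19a3.

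Slc52a2 (ENSMUSG00000022560.8, chr15:76538832-76544608, plus strand), a riboflavin carrier found in many tissues, was at 35.7 TPM in pup 1 and 39.9 TPM in pup 2, or 37.8 ± 2.96 TPM. Slc52a3 (ENSMUSG00000027463.10, chr2:151996511-152009258, plus strand), the riboflavin carrier of the intestinal brush border, was at 12.6 and 12.7 TPM, or 12.6 ± 0.0636 TPM. The paralogue of wide expression was thus 2.97-fold the higher, a log2 difference of 1.57 ± 0.11. All 6 further riboflavin genes were detected, with a median of 204 TPM. Rfk, the kinase that makes flavin mononucleotide, stood at 396 ± 22.4 TPM, between the electron transfer flavoprotein subunits Etfb at 619 TPM and Etfa at 268 TPM.

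Slc5a6 (ENSMUSG00000006641.8, chr5:31036036-31048924, minus strand) encodes the sodium-dependent carrier of biotin and pantothenate. It was at 14.7 TPM in pup 1 and 16.4 TPM in pup 2, or 15.6 ± 1.22 TPM. Its exons overlap those of Atraid on the opposite strand over 396 bases. Atraid was at 180 and 198 TPM, and the sources used here do not state the use of strand, so reads of the overlap may be shared. Slc5a8, a related sodium-coupled carrier that also takes nicotinate, was lower, at 3.93 and 2.63 TPM, a 4.71-fold difference from Slc5a6. Of the 17 further biotin and pantothenate genes 16 were detected, with a median of 9.04 TPM. The highest were Ppcs, an enzyme of coenzyme A synthesis, at 71.8 TPM, the biotin-recycling enzyme gene Btd at 37.0 TPM, and the pantothenate kinase gene Pank3 at 33.0 TPM.

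Slc23a1 (ENSMUSG00000024354.7, chromosome 18, minus strand), the sodium-dependent ascorbate carrier of absorptive epithelia, was at 10.05 TPM in pup 1 and 16.2 TPM in pup 2, or 13.1 ± 4.34 TPM. Its SD was the widest relative to the mean among the 10. Slc23a2, the ascorbate carrier of most other tissues, was at 6.45 and 5.38 TPM, a count ratio of pup 2 over pup 1 of 0.924 with an interval of 0.846 to 1.01. Slc23a1 was the higher of these in both pups, by 0.63 and 1.57 on the log2 scale. Gulo was at 0.35 and 0.44 TPM. Of the 7 further ascorbate genes 5 were detected, with a median of 5.92 TPM, led by Gsto1, an omega glutathione transferase, at 604 TPM, Cyb561 at 39.5 TPM and Slc2a1 at 14.9 TPM.

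For the remaining vitamins no carrier was among the 10. Of 9 niacin genes 8 were detected, with Naprt, which starts nicotinate salvage, at 68.6 TPM, Nadsyn1 at 20.4 TPM and Nmnat3 at 15.6 TPM. Slc22a13 was at 0.04 and 0.09 TPM. Of 5 pyridoxine genes 3 were detected, among them the intestinal alkaline phosphatase gene Alpi at 1069 TPM and the pyridoxal kinase gene Pdxk at 26.2 TPM. Aox1 was at 0.06 TPM in both pups. Over all vitamin lists 78 of 86 measured genes were detected, with a median of 14.4 ± 0.506 TPM. Of all protein-coding nuclear genes 59.1% were detected, with a median of 2.975 ± 0.134 TPM. Both medians include genes that were not detected.

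**Figure D4:**
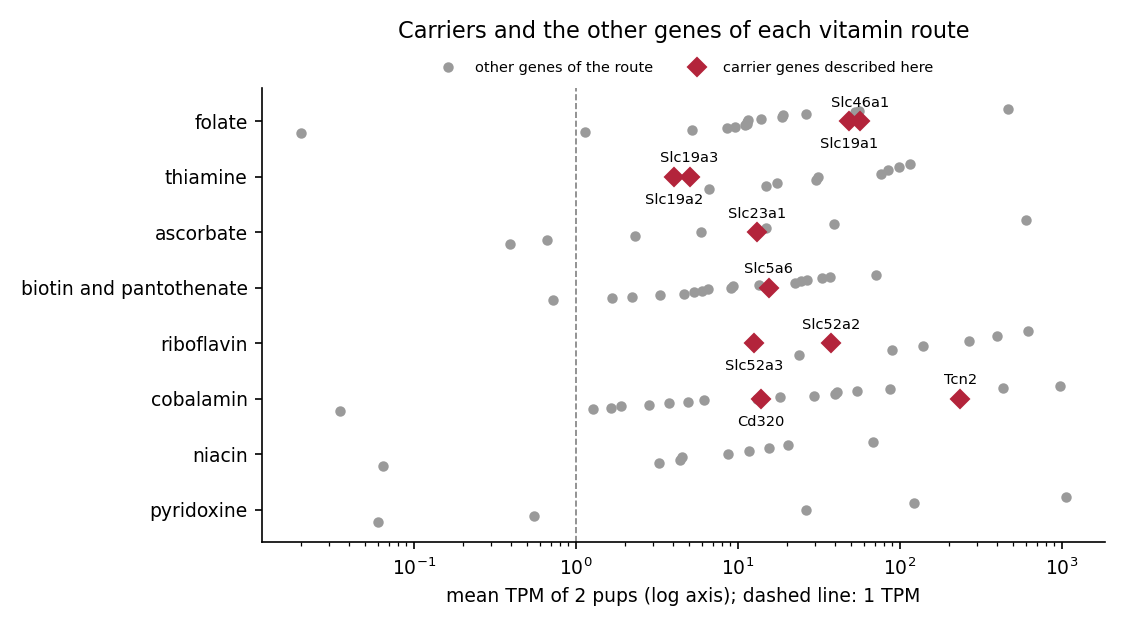
Mean TPM of 2 pups (horizontal log axis) for the 10 genes, as red diamonds, and the other genes of each vitamin route, as grey points. The thiamine carriers lie left of the other thiamine genes, and Tcn2 lies near the right end of its route.

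In the order of levels 7 of 9 neighbouring genes differed by more than the SD of their log2 difference with the same sign in both pups. The others were Cd320 against Slc23a1, at 0.13 ± 0.44, and Slc23a1 against Slc52a3, at 0.014 ± 0.48. Slc23a1, the gene in both comparisons, therefore has no settled place beside Cd320 and Slc52a3. The order was taken from the same values, so the direction of these differences was largely set in advance. All 10 pairs of related genes differed by more than their SD. In counts without length 9 of 10 did, the exception being Slc23a1 over Slc23a2, at a mean of 0.16. Those 9 include Slc19a2 over Slc19a3, whose direction reversed, from -0.31 to 0.33. Other gene pairs were not put to the same rule, so these counts do not set the related pairs apart from other genes.

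Littermates were compared by the ratio of counts, pup 2 over pup 1, on effective library sizes, with an exact 95% interval. None of the 10 genes was over 2-fold apart, that is with an interval wholly outside 2-fold, against 0.802% of 19088 genes. The interval lay above 1 for 5 of 10, Slc23a1, Slc19a3, Slc5a6, Slc52a2 and Tcn2, and below 1 for 0. Over all genes tested 14.2% lay above and 15.5% below, and of detected protein-coding genes 16.6% lay above. Narrow intervals make small ratios count: Tcn2 was at 1.04, with an interval of 1.01 to 1.06. The ratio was 1.07 for Slc52a2, 1.13 for Slc5a6 and 1.17 for Slc19a3. With DESeq2 size factors 4 of 10 lay above 1, without Slc19a3, whose lower bound was 1.0004 on effective library sizes. With scaling to the spike-ins, which raised the ratio of every gene by the same factor, 10 of 10 did.

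Slc23a1 had the ratio farthest from 1, at 1.52 with an interval of 1.396 to 1.65, from 1042 and 1260 counts. Its level was 23.6 CPM (counts scaled to effective library size) in pup 1 and 35.8 CPM in pup 2. Among 12677 detected protein-coding genes the 5th to 95th percentiles of the ratio were 0.823 and 1.21, and 0.607% of genes had a higher ratio. Paip2, which overlaps Slc23a1 on the opposite strand by 2584 bases but shares 0 exonic bases, had a ratio of 0.924. The ratios of the other 9 genes ran from 0.955 for Slc19a2 to 1.17 for Slc19a3, inside those percentiles. With 1 library per pup, a difference between animals and a difference in the tissue taken cannot be told apart.

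**Figure D5:**
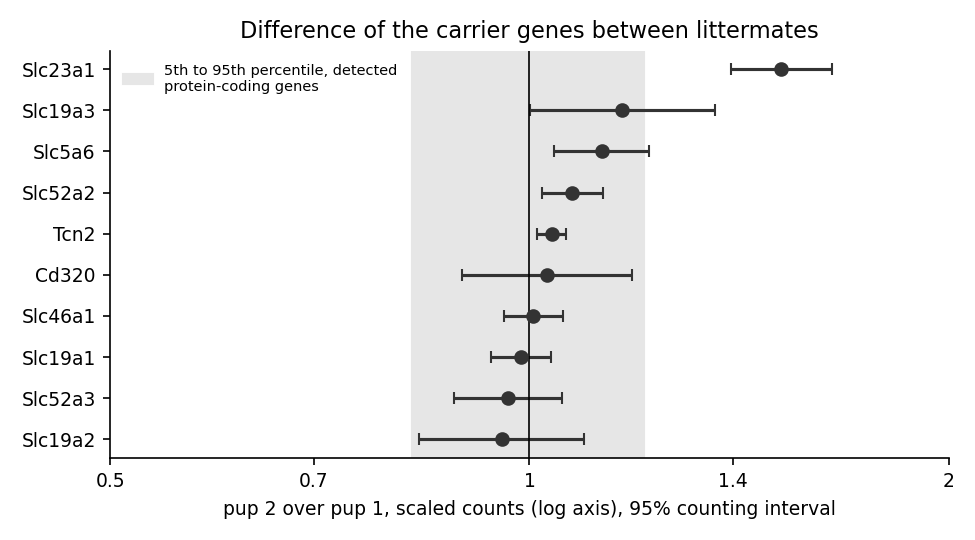
Ratio of counts, pup 2 over pup 1, for each of the 10 genes (log axis) with exact 95% intervals from counting error, and the 5th to 95th percentile of detected protein-coding genes. Slc23a1 alone lies outside those percentiles, at 1.52.

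Markers of other tissues and other carriers also differed between the pups. The 5 exocrine pancreas markers summed to 96.6 TPM in pup 1 and 156 TPM in pup 2, with Ctrb1 at 60.3 and 93.7 TPM and the interval of the count ratio above 1 for 3 of 4 markers with at least 10 counts. The 6 genes of the colon list summed to 221 and 213 TPM, most of it Muc2 at 141 and 134 TPM. Muc2, a mucin gene, is not particular to colon, so these sums do not measure colon content. Car1 of this list had 235 counts in pup 1 and 0 in pup 2. Slc26a3 of the same list was higher in pup 2, at 49.3 and 60.2 TPM (ratio 1.16, interval 1.11 to 1.21), and Aqp8 was lower, at 24.8 and 18.7 TPM (ratio 0.712). The bile acid carrier Slc10a2 of the ileum had 72 and 13 counts, a ratio of 0.226 with an interval of 0.115 to 0.412. Slc5a8 had a ratio of 0.642 and Cubn 1.23. The 6 epithelial markers summed to 3298 and 3115 TPM. The part of these differences in the value of Slc23a1 was not tested.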

How the data were processed

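Total RNA longer than 200 nt from the intestine of 2 newborn pups was measured by RNA-seq, 1 library per pup, from 10 ng of RNA with ERCC spike-ins, per the labels. The authors deposited gene and transcript tables with expected counts (estimated numbers of reads, not always whole) and posterior mean counts, per the file headers. In the deposited TPM, values are per effective length and sum over every feature, with spike-ins and mitochondrial genes among them. Transcript shares within a gene were deposited in percent. Reads were assigned on mm10 with GENCODE M4, per the text deposited with the tables. Aligner, quantifier and use of strand: not given in the sources used here.

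Symbols, positions and transcript types came from GENCODE M21 on GRCm38, matched by identifier without version for 42462 of 43346 Ensembl genes (98.0%). Unmatched genes (884) took 0.113% and 0.121% of counts and stayed in the totals. Cblif and Mmut were matched through the older symbols Gif and Mut, and Pdxp was not measured. Coding shares were given where at least 80% of a gene's TPM fell in matched transcripts.

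Levels are TPM, given per pup or as mean ± SD over 2 pups. Pairs are log2 ratios of TPM + 0.1 within each pup, called apart if the mean exceeded the SD with the same sign in both pups. Neighbours in the order of levels were compared by the log2 ratio of TPM. Ratios of pup 2 over pup 1 were formed from rounded (whole-number) expected counts and TMM effective library sizes from edgeR 4.0.16 in R 4.3.3, with exact Clopper-Pearson 95% intervals from SciPy 1.17.1. Over 2-fold apart means that the whole interval was above 2 or under 0.5, for genes with at least 10 counts in sum. No test across conditions was run. On simulated counts over 19096 genes, with counting error alone, the 2-fold rule called 0 of 50 genes changed 1.5-fold. It called 47 of 50 at 3-fold, all 50 at 6-fold and all 50 at 12-fold, with 1 false call among 18896. Changed genes were drawn from those with a summed count of at least 50. The simulation held no variation between animals or from amplification, so it gives no rate of false calls in these data. Python 3.11.15, numpy 2.4.6, pandas 2.3.3, matplotlib 3.10.9 and DESeq2 1.42.0 (size factors alone) were also used.

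The genes and lists were chosen with earlier results of these data known. Named were the 10 genes, both genes of each pair and, of each list of the vitamin routes, the 3 highest by mean TPM, those under 0.1 TPM in both pups and any over 2-fold apart. Of the marker lists the highest and lowest were eligible. Some items that meet these rules are not reported here. Further genes (Gulo, Atraid, Paip2, Col18a1, Slc26a3, Aqp8) were named after their values were seen, as were the starts and transcripts described. Alternatives were other scalings, thresholds, pseudocounts, estimates of the counts and leaving out either pup.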

Additional observations from a re-analysis of the deposited data

How the results depend on the processing

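All 10 genes stayed detected with a threshold of 0.5 TPM, with posterior mean TPM, with TPM rescaled to nuclear genes and with either pup left out (10 and 10), while 8 passed 5 TPM. Their median of 15.2 TPM became 16.8 TPM after that rescaling and ranged from 14.2 to 16.3 TPM over the pups alone. The number of genes under 50% coding was 1 with either pup left out. Slc19a2 over Slc19a3 reversed from -0.31 to 0.33 in counts without length and to 0.75 on protein-coding transcripts alone. The median over the vitamin lists was 17.9 TPM with only genes at 1 TPM or more, against 14.4 TPM. Scaling to spike-ins, which rests on 534 and 200 counts, moved the median ratio of detected protein-coding genes by 1.09 on the log2 scale. Over 2-fold apart were then 6 of the 10 genes and 5603 of all 19088 tested (29.4%), against 0 and 153 (0.802%). The intervals of 10 of the 10 genes then lay above 1, against 5, with the ratio of every gene raised by the same factor. The cause of this shift was not tested. Posterior mean counts gave 82 genes in all (0.427%), a 1.5-fold limit 283 (1.48%) and a 1-fold limit 5658 (29.6%) with 5 of the 10. None of the 10 was over 2-fold apart with DESeq2 size factors, total counts, posterior mean counts or no minimum count. Protein-coding transcripts alone and the 1-fold limit were chosen after the data were seen. Ratios between pups could not be computed with a pup left out, nor could the spread of pairs. No paired analysis was possible because both pups belong to 1 group. Depth limits Slc19a3 most, with 355 and 330 counts.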
